A study of Mus musculus with 10 samples.

Results

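Apolipoproteins are the proteins that liver cells put on lipoprotein particles, and the 9 genes described here are those for the liver apolipoproteins encoded outside the gene cluster on chromosome 9 (Apob, Apoe, Apoc1, Apoc2, Apoc4, Apoa2, Apoh and Apom) together with Mttp, the factor that loads lipid onto ApoB. They were chosen by name from the 55401 genes of the count table, with earlier results of these data known. All 9 were among the 14098 genes with enough counts to be tested. Levels are given as CPM, counts scaled to a common library size with TMM factors, unless another scale is named. Liver RNA came from 10 female mouse fetuses at E18.5 (embryonic day). In 5 of them the Mir483 gene was deleted constitutively on the paternal allele (Mir483Pat-KO), and their 5 WT littermates were the controls. Mir483 lies inside the imprinted growth factor gene Igf2, whose paternal copy is the active one, and the maternal Mir483 allele was intact in both groups. The deletion was made in C57BL/6N embryonic stem cells, its selection marker was removed there by Cre, and the colony was kept on C57BL/6J. The labels do not give the litter of a sample.

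ApoB is the structural protein of very low density lipoprotein, and a particle forms only if the microsomal triglyceride transfer protein, which Mttp encodes, adds lipid to ApoB while it is being made. The smaller apolipoproteins exchange between particles in plasma. ApoE is a ligand for the receptors that clear remnants, ApoC-II activates lipoprotein lipase, ApoC-I restrains particle uptake and ApoA-II is a main protein of high density lipoprotein (HDL). Apom encodes a carrier of sphingosine-1-phosphate on HDL, and Apoh encodes beta-2-glycoprotein I, a phospholipid-binding plasma protein.

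The deleted gene gives the microRNAs below, shown because their seeds (bases 2 to 8, in capitals) define the sites searched for in the 9 genes. The mature sequences are those of RefSeq, and both map to the minus strand of chromosome 7 in GRCm38.p6, at chr7:142654932-142654952 for miR-483-3p and chr7:142654968-142654989 for miR-483-5p.
mmu-miR-483-3p: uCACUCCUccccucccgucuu
mmu-miR-483-5p: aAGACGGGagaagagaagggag

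None of the 9 genes carried the complement of either seed (AGGAGTG for miR-483-3p, CCCGTCT for miR-483-5p) in its longest annotated 3′ UTR, which ranged from 64 bp in Apoc4 to 1201 bp in Mttp. Among all 21124 protein-coding genes with an annotated 3′ UTR, 11.7% held the first site and 3.0% the second. The absence of a match says only that these letters are not in these UTRs.

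The members lie at 6 places in the genome (GRCm38), and 4 of them are neighbours. Apoc2, Apoc4, Apoc1 and Apoe stand in this order on the minus strand of chromosome 7, within 27610 bp from 19671579 to 19699188, the conserved Apoe/Apoc cluster. Apoc2 ends 141 bp from Apoc4, and Apoc1 ends 3448 bp from Apoe. Apob (chromosome 12, 7977648 to 8016835, plus strand) has 29 merged exons. Mttp lies on chromosome 3 (138089854 to 138144968, minus strand), Apoa2 on chromosome 1 (171225054 to 171226379, plus), Apoh on chromosome 11 (108343354 to 108414396, plus) and Apom on chromosome 17 (35128997 to 35132050, minus).

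The 120 bases before the first annotated exon base at the RefSeq start are shown for Apoe, which passed the test, and for the 3 abundant genes whose windows held a motif of a liver factor or a TATA box, with each motif in capitals. They are RefSeq sequences of GRCm38.p6, written 5′ to 3′ on the strand of the gene, from chr7:19699189-19699308 (minus) for Apoe, chr12:7977528-7977647 (plus) for Apob, chr1:171224934-171225053 (plus) for Apoa2 and chr11:108395173-108395292 (plus) for Apoh.
Apoe: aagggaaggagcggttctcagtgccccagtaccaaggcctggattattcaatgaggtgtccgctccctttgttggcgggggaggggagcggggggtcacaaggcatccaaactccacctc
Apob: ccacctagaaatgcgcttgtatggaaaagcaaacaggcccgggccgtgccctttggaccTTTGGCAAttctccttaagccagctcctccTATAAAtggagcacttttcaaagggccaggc
Apoa2: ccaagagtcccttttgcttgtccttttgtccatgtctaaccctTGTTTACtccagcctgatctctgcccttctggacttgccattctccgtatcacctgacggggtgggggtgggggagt
Apoh: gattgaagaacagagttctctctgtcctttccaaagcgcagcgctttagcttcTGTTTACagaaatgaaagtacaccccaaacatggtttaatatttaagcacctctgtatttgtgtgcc

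Positions below are counted from the RefSeq start to the first base of a motif, and 29 bases for Apob and 4 bases for Apoh lie between the last base shown and that start. The forkhead motif TGTTTAC, which FOXA factors bind, stood 77 bases before the RefSeq start of Apoa2 and 71 bases before that of Apoh, and 3.17% of 32851 mouse promoter windows of 250 bases held it on either strand. The Apob window had a TATA box (TATAAA, in 12.4% of windows) at 60 bases, as Apoa2 had at 212 bases, upstream of the bases shown, and the C/EBP motif TTGCNNAA (9.56% of windows), on the other strand, at 90 bases. Mttp had none of the 6 motifs searched in its window. The other 3 motifs were the GC box GGGCGG (32.7% of windows), found before Apoc4, the HNF1 half-site GTTAAT (6.43%), found before Apoc2 and before an alternative start of Apoe, and the HNF4A motif CAAAGTCCA (0.384%), found before none. Alternative starts of Apoe and Apoa2 held a TATA box and a C/EBP motif, respectively. Different motifs did not overlap each other in these windows, and the motifs were chosen after an earlier search of the same windows. RefSeq windows matched 8 of the 9 members (all but Apoc1), and a match is a description of letters, not evidence of binding.

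Per length of transcript, 3 members were among the 20 most abundant genes in WT fetal liver. Measured as counts per kilobase of exon, scaled to the same total in every library (the only scale here on which genes can be compared), Apoa2 stood at 8620.1 ± 552 (SD, n = 5), the 15th highest level of all genes. Apoe followed at 5816 ± 742 (rank 18) and Apoh at 5478 ± 426.4 (rank 19), and these neighbours overlapped, with WT ranges of 5261 to 7007 and 5064 to 6115. Apoc1 stood at 2253 ± 329 (rank 40). Apom (967 ± 52.7) and Apob (754 ± 90.3) came next and did not overlap, since the lowest WT library for Apom was at 897 and the highest for Apob at 860.1. Apoc4 stood at 162 ± 18.8, Mttp at 97.6 ± 6.56 and Apoc2 at 12.3 ± 2.13, and none of these 3 overlapped its neighbours in the order. The Apoc2 level divides by all its exonic bases, of which another gene model on the same strand shares 79.5%. Its place in the order is therefore uncertain. With the length of the longest transcript in place of all exons, Apoe (7033) and Apoa2 (7118) were nearly level, Apob stood at 601, Apom at 770.3 and Mttp at 122. The chromosome 9 gene Apoa1, for the main HDL protein, was above all of them at 18211 ± 1153.

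Mir483Pat-KO libraries had lower Apoe and Mttp RNA than WT libraries, and no member was higher at an adjusted p under 0.05. Apoe fell by 20.4% and Mttp fell by 17.9%. Apob, the particle protein that Mttp serves, differed by less than the spread between replicates. Of the 9 members, 2 were lower and 0 were higher at an adjusted p under 0.05, against 2.76% lower and 2.43% higher among all genes tested. No member passed that threshold with a fold change over 1.5, as 0.872% (lower) and 0.355% (higher) of all genes did. At an unadjusted p under 0.05, 6 members were lower and 0 higher, where the whole table had 10.7% and 11.5%. DESeq2 and limma-voom also called 0 members higher, and both called Apoe and Mttp lower. DESeq2 called Apoh lower as well (adjusted p = 0.0401). The fitted fold change was below 0 for 8 of the 9, with a median of −0.18 on the log2 scale, against a median of 0.0042 over all genes tested. In 2 members, Apoe and Apoc2, each of the 5 Mir483Pat-KO libraries was below the lowest WT library, and in none did all lie above (3.26% and 3.34% of all genes). The adjusted p-values here and below are from the edgeR quasi-likelihood F-test with Benjamini-Hochberg adjustment over all genes tested.

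Hepatocyte markers as a whole were also lower in the Mir483Pat-KO libraries. Counts of 14 hepatocyte markers, among them albumin (Alb) and transthyretin (Ttr), summed to 236523 to 265259 CPM in WT and 212148 to 244259 CPM in Mir483Pat-KO (two-sided exact permutation test, p = 0.0238). All 14 had a fitted fold change below 0, with a median of −0.17 (log2), close to that of the members, and 2 (Rbp4 and F2) passed the test. Of the 14, Hnf4a is also among the regulators described later. Erythroid markers moved the other way, from 17837 to 22733 CPM in WT to 20938 to 28779.8 CPM in Mir483Pat-KO (exact permutation test, p = 0.0238), with 14 of 15 fitted above 0 and 3 of them passing. No marker of any list was at 0. Summed macrophage (p = 0.714), endothelial and stellate (p = 0.0556) and bile duct (p = 0.817) markers did not pass exact permutation tests. Of the endothelial and stellate markers 12 of 14 were fitted below 0, with a median of −0.18 and 0 passing, and their sum ran from 944 to 1404 CPM in WT and from 838 to 1123 CPM in Mir483Pat-KO. Of 15 macrophage markers 2 (Clec4f and C1qa) were lower, with 8 fitted below 0, and of 6 bile duct markers 5 were fitted below 0 and 0 passed. In bulk liver, fewer hepatocytes and less RNA per hepatocyte cannot be told apart, and the part of cell composition in the values of the members was not tested.

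**Figure D1:**
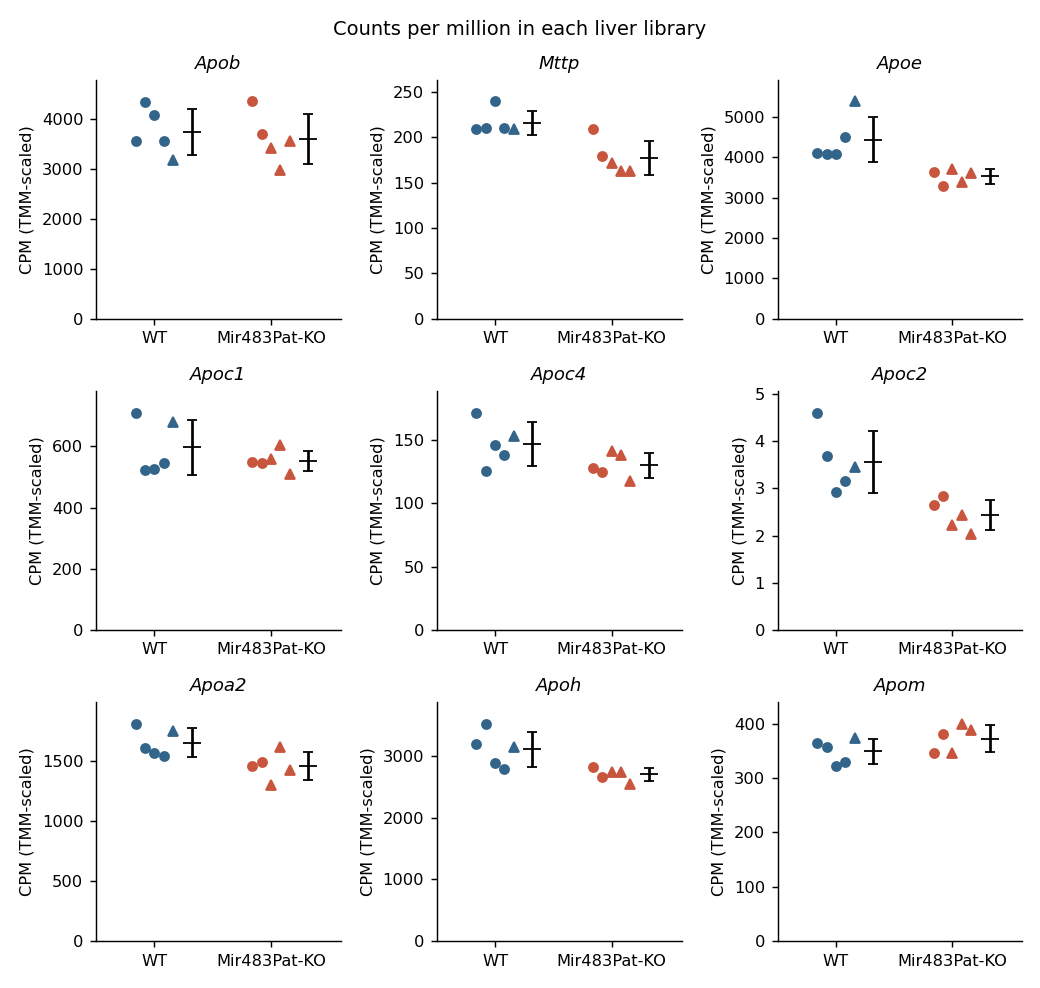
Each panel plots 1 gene, with its CPM (counts scaled to the library size by TMM) on the vertical axis (from 0) and the genotype on the horizontal axis. Points are the 5 libraries of a group in order of replicate number, circles for the lower and triangles for the upper range of identification numbers, and bars give the mean ± SD. All Mir483Pat-KO points for Apoe lie at or under 3709.6 CPM and all WT points at or above 4073 CPM, while the groups overlap for Apob, Apoc1 and Apom.

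For the particle itself, Apob gave 3565, 4340.1, 4079, 3555 and 3179.6 CPM in WT replicates 1 to 5 and 4358, 3697, 3420.2, 2984 and 3558 CPM in Mir483Pat-KO replicates 1 to 5. The groups overlapped almost fully, and the highest of the 10 values was a Mir483Pat-KO library. The means were 3744 ± 462 in WT and 3603 ± 499 in Mir483Pat-KO (SD over 5 libraries each, log2 fold change −0.055, edgeR adjusted p = 0.798, standard error 0.103). The 95% interval, −0.27 to 0.16, leaves room for a decrease to 0.828 times or an increase to 1.12 times the WT level. The direction of Apob turned within the lower identification number range (log2 fold change 0.050) and with that range as a covariate (0.056). It stood at −0.13 with the GC content and length offsets, and without single libraries it ran from −0.14 (Mir483Pat-KO replicate 1 left out) to 0.00051 (WT replicate 2 left out), so no direction is given for it.

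Mttp stood at 209, 211, 239, 210.3 and 209 CPM in WT replicates 1 to 5. In Mir483Pat-KO replicates 1 to 5 it stood at 209, 179.7, 171, 162 and 163 CPM. Replicate 1 of Mir483Pat-KO was level with the WT libraries and the other 4 lay below all of them. The mean fell from 216 ± 13.3 to 177 ± 19.2 CPM (SD over 5 libraries each, log2 fold change −0.28, standard error 0.0775, 95% interval −0.45 to −0.12, edgeR adjusted p = 0.0441). The call is close to the threshold. It was kept in 2 of the 10 fits that each left out 1 library, those without Mir483Pat-KO replicate 1 (−0.36, adjusted p = 0.00878) and without WT replicate 2 (−0.30, adjusted p = 0.0477), and its highest adjusted p was 0.108, without Mir483Pat-KO replicate 4. Exons of genes on the opposite strand, Trmt10a and Gm43691, share 7.4% and 2.1% of the exonic bases of Mttp.

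Because a ratio of counts within a library needs no scaling, the loading factor was also set against the particle protein. The log2 ratio of Mttp to Apob counts was −4.11 ± 0.159 in WT against −4.34 ± 0.0918 in Mir483Pat-KO (SD over 5 libraries each), a difference of −0.23 (two-sided exact permutation test, p = 0.0317, 0.111 after adjustment over the 7 ratios tested). After adjustment the difference between Mttp and Apob did not pass the threshold.

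**Figure D2:**
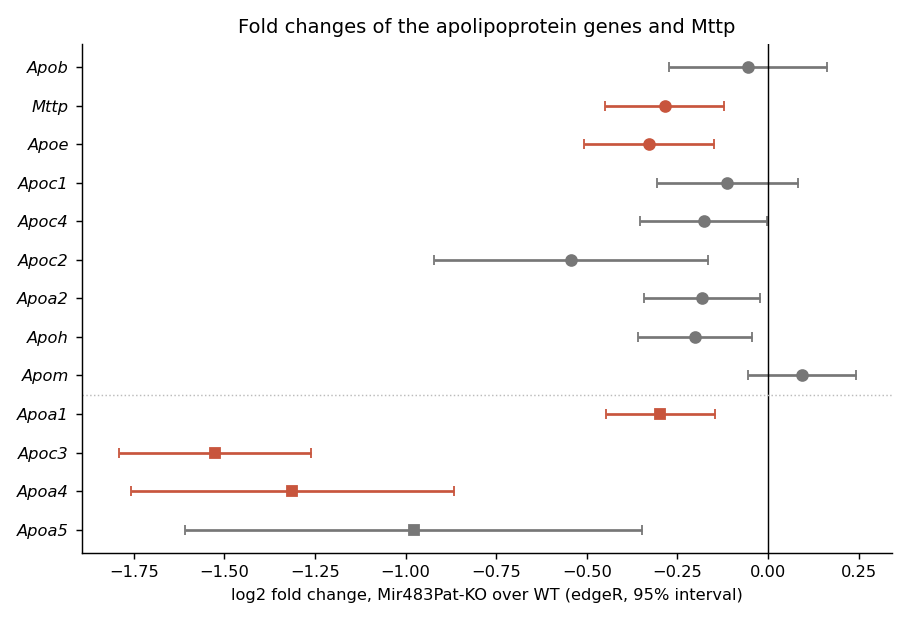
The horizontal axis gives the log2 fold change of Mir483Pat-KO over WT from edgeR, with bars for the 95% interval (n = 5 per group), for the 9 members (circles) and the 4 genes of the chromosome 9 cluster (squares, under the dotted line). Red marks an adjusted p under 0.05, which Apoe and Mttp reach with intervals of −0.51 to −0.15 and −0.45 to −0.12, while Apob and Apom span 0.

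In the chromosome 7 cluster, Apoe stood at 4101, 4073, 4089, 4508 and 5379 CPM in WT replicates 1 to 5 and at 3642, 3296, 3709.6, 3373 and 3608 CPM in Mir483Pat-KO replicates 1 to 5. The groups did not overlap, and WT replicate 5 stood above the other WT libraries. The mean fell from 4429.9 ± 561 to 3526 ± 180.3 CPM (SD over 5 libraries each, log2 fold change −0.33, standard error 0.0846, 95% interval −0.51 to −0.15, edgeR adjusted p = 0.0350). Without WT replicate 5 the log2 fold change was −0.25 (adjusted p = 0.0690). The call was kept in 4 of the 10 fits that left out 1 library (without Mir483Pat-KO replicate 1 or WT replicate 1, 2 or 3) and lost without WT replicate 4 or 5 or Mir483Pat-KO replicate 2, 3, 4 or 5, with a highest adjusted p of 0.0918. With offsets that remove the trend of counts with GC content and length, the Apoe log2 fold change was −0.19 (adjusted p = 0.130). The longest transcript of Apoe is 59.5% G and C, the highest share of the 9. Over all genes tested the log2 fold change had a Spearman rho of −0.439 with GC content, across 14098 genes, which are not independent replicates. Within single libraries, deviations from the gene means had a rho with GC content of −0.153 to 0.581 in WT. In Mir483Pat-KO that rho was −0.413 to 0.194. It was highest in WT replicates 5 (0.581) and 4 (0.464), which also had the most Apoe.

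Apoc2, the lipase activator, had the fewest counts of the 9. Its WT replicates 1 to 5 gave 52, 44, 41, 41 and 49 counts. Mir483Pat-KO replicates 1 to 5 gave 34, 36, 29, 27 and 31 counts. Every Mir483Pat-KO library was below every WT library, also after scaling (2.04 to 2.85 against 2.93 to 4.61 CPM). Its log2 fold change of −0.54 (standard error 0.179, 95% interval −0.92 to −0.16) was the largest fitted decrease of the 9 but did not pass after adjustment (edgeR adjusted p = 0.0869). The value covers an unknown part of the gene, because exons of Gm44805, a gene model on the same strand, cover 79.5% of the exonic bases of Apoc2, and Gm44805 had 0 counts in every library. The paper names the aligner STAR for the gene counts. The rule used for reads in shared exons is not given in the sources used here.

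Apoc4 and Apoc1 lie between Apoc2 and Apoe and overlapped between the groups. Apoc4 stood at 125 to 172 CPM in WT against 118 to 141 CPM in Mir483Pat-KO, which is a log2 change of −0.18 (standard error 0.0831, edgeR adjusted p = 0.221). Apoc1 stood at 711, 523, 527, 547 and 680.5 CPM in WT replicates 1 to 5 and between 510.4 and 604 CPM in Mir483Pat-KO, which is a log2 change of −0.11 (standard error 0.0921, edgeR adjusted p = 0.508). WT replicates 1 and 5 were well above the other 8 libraries for Apoc1, and its log2 fold change was −0.051 without WT replicate 1 and −0.060 without WT replicate 5. Only 1 Mir483Pat-KO library of Apoc1 and 2 of Apoc4 were below all WT libraries.

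Whether the 4 neighbours changed unequally was tested with the 6 ratios between them. None passed after adjustment over the 7 ratios. The smallest p was that of Apoc1 to Apoc2, whose log2 ratio was 7.38 ± 0.187 in WT against 7.81 ± 0.183 in Mir483Pat-KO, a difference of 0.43 (two-sided exact permutation test, p = 0.0159, adjusted p = 0.111). Apoc4 to Apoc2 differed by 0.36 (exact permutation p = 0.0556, adjusted p = 0.130). Apoe to Apoc1 differed by −0.22 (exact permutation p = 0.0873, adjusted p = 0.153) and Apoe to Apoc4 by −0.15 (p = 0.214, adjusted p = 0.259). Apoe to Apoc2 differed by 0.21 (exact permutation p = 0.278) and Apoc1 to Apoc4 by 0.072 (p = 0.222). The smallest p this design can give is 0.00794.

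Of the HDL and plasma proteins, Apoa2 stood at 1807, 1603, 1559.8, 1535 and 1747 CPM in WT replicates 1 to 5 and at 1453, 1490.1, 1295, 1617 and 1418 CPM in Mir483Pat-KO replicates 1 to 5. Replicate 4 of Mir483Pat-KO lay inside the WT range and the other 4 lay below it. The log2 fold change was −0.18 (standard error 0.0760, 95% interval −0.34 to −0.021, edgeR adjusted p = 0.172). Apoh stood at 2801 to 3530.1 CPM in WT against 2543 to 2827 CPM in Mir483Pat-KO, with 4 of 5 libraries below all WT libraries and a log2 fold change of −0.20 (standard error 0.0746, adjusted p = 0.124). DESeq2 gave Apoh the same size with an adjusted p of 0.0401. Both differences missed the threshold in edgeR.

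Apom was the only member whose fitted value was above 0. It stood at 365, 357, 322, 329 and 374 CPM in WT replicates 1 to 5 and at 346, 382, 346, 400.2 and 389 CPM in Mir483Pat-KO replicates 1 to 5. The groups overlapped, with 3 of 5 Mir483Pat-KO libraries above all WT libraries. The log2 fold change was 0.093 (standard error 0.0701, 95% interval −0.055 to 0.24, edgeR adjusted p = 0.463), and 0.058 without Mir483Pat-KO replicate 4 or 0.053 without WT replicate 3.

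The spread within groups differed between members. In WT the coefficient of variation was lowest for Mttp (6.17%) and Apom (6.55%) and highest for Apoc2 (18.3%) and Apoc1 (15.2%). Together the 9 genes held 1.41% ± 0.0397 of all counts in WT (range 1.37% to 1.46%) and 1.27% ± 0.0386 in Mir483Pat-KO (range 1.23% to 1.33%, SD over 5 libraries each), ranges that did not overlap. The libraries were not ordered alike for all members. Mir483Pat-KO replicate 5 was the lowest of the 10 for 4 members and WT replicate 1 the highest of the 10 for 4.

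The identification numbers of the samples fell into ranges that were unequally split, with 4 WT and 2 Mir483Pat-KO libraries in the lower and 1 WT and 3 Mir483Pat-KO libraries in the upper range, and what a range marks is not stated. Within the lower range Apoe averaged 4193 CPM in WT against 3469 CPM in Mir483Pat-KO, and in the upper range 5379 and 3563 CPM. For Mttp the means were 217 and 194 CPM in the lower and 209 and 166 CPM in the upper range. The direction was thus the same in both ranges for these 2 genes, and the upper range rests on 1 WT library. With the range as a covariate Apoe kept its call (log2 fold change −0.39, edgeR adjusted p = 0.0120) and Mttp lost it (−0.23, adjusted p = 0.0691). In the lower range alone neither passed (adjusted p = 0.206 and 0.466).

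**Figure D3:**
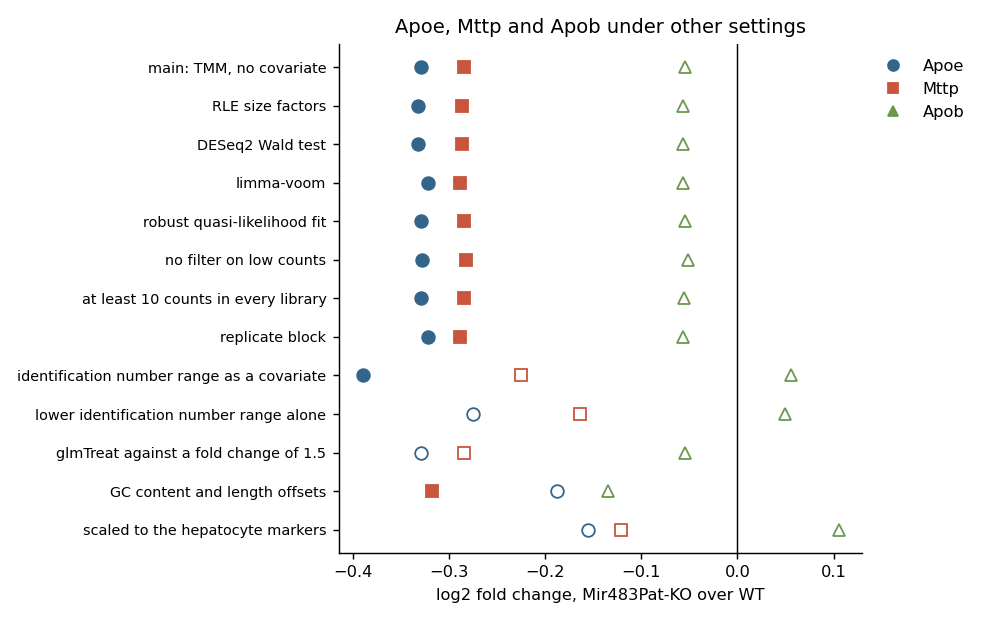
The horizontal axis gives the log2 fold change of Mir483Pat-KO over WT for Apoe (circles), Mttp (squares) and Apob (triangles), and each line of the vertical axis is 1 way of processing the counts. Filled symbols have an adjusted p under 0.05. Apoe and Mttp lie below 0 in every setting shown, from −0.39 to −0.16 for Apoe and from −0.32 to −0.12 for Mttp, while Apob lies on either side of 0 and never passes.

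Scaling each library to its hepatocyte markers, in place of TMM, asks how the members moved against other hepatocyte RNA. This scaling moved the median log2 value over all genes tested from 0.0042 to 0.17. Under it Apoe stood at −0.16 (edgeR adjusted p = 0.135) and Mttp at −0.12 (adjusted p = 0.287), and neither passed. Apoa2 stood at −0.0096, Apoc4 at −0.0069 and Apoh at −0.032, while Apob (0.11) and Apoc1 (0.063) stood above 0. Apom stood at 0.27 and passed (adjusted p = 0.0230). Relative to the shifted median of all genes, the values were −0.33 for Apoe, −0.29 for Mttp and 0.094 for Apom, close to the values with TMM. That closeness is built in, because the scaling moves all genes by about the same amount, and it is not a separate result. The share of lower among all called genes went from 53.2% (389 lower, 342 higher) to 6.32% (190 lower, 2815 higher).

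The chromosome 9 cluster, given side by side in the same libraries, held the larger differences. Apoa1 stood at 8026 ± 602 CPM in WT against 6532 ± 219 CPM in Mir483Pat-KO (SD over 5 libraries each), which is a log2 change of −0.30 (edgeR adjusted p = 0.0262), near the values of Apoe and Mttp. Apoc3, an inhibitor of lipoprotein lipase, stood at 55.9 ± 5.32 and 19.4 ± 4.67 CPM, which is a log2 change of −1.53 (adjusted p = 1.83e-05). Apoa4 changed by −1.31 (log2, adjusted p = 0.00385), and opposite-strand genes share 69.8% of its exonic bases. Apoa5, an activator of lipase action, had −0.98 (adjusted p = 0.0662), and its 3′ UTR held 1 miR-483-3p site. It passed in limma-voom (−1.12, adjusted p = 0.0466), with no filter on low counts (adjusted p = 3.42e-07), with the replicate block (−1.05, adjusted p = 0.00925) and without Mir483Pat-KO replicate 3 (−1.32, adjusted p = 0.0138), and stood at −1.70 in the lower identification number range, where it did not pass. The call of Apoa1 was lost without WT replicate 5 or Mir483Pat-KO replicate 3, 4 or 5 (−0.31 to −0.26). It was also lost with the GC content and length offsets (−0.22, adjusted p = 0.103), with scaling to the hepatocyte markers (−0.12, adjusted p = 0.173) and in the lower identification number range (−0.24, adjusted p = 0.242). In that range Apoa4 also lost its call (−0.93, adjusted p = 0.193). The difference between the 2 groups of apolipoprotein genes was not tested.

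Among 7 further lists of lipoprotein genes, 78 of 86 genes were tested, and 13 were lower and 1 higher at an adjusted p under 0.05, against 2.76% lower and 2.43% higher over all genes tested. Their median log2 fold change was −0.10, against 0.0042 over all genes, and 59 of 78 were fitted below 0. At an unadjusted p under 0.05, 29 were lower and 3 higher, against 10.7% and 11.5% of all genes. The same shares are the background for the counts of each list that follow. The lists were written with earlier results of these data known, so these counts do not test an unselected set against that background. In the fits that left out 1 library the count of lower genes ran from 6 to 17. It was 6 without Mir483Pat-KO replicate 2 or 4, 7 without WT replicate 5 and 8 without WT replicate 4. It was 0 in the lower identification number range alone, so none of the genes named from these lists passed there. After scaling to the hepatocyte markers it was 5 (Pon1, Gpld1, Abcg5, Apon and Nr0b2). The summed hepatocyte markers were lower in the same libraries, as given above.

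Of the 16 genes listed around the lipid loading and secretion of ApoB particles (among them Dgat1, Dgat2, Tm6sf2, Sar1b and Surf4), 1 was lower and 0 were higher. Their median log2 fold change was −0.017, with 10 fitted below and 6 above 0. The gene that fell was Plin2, which coats cytoplasmic lipid droplets, from 131 ± 10.5 to 102 ± 7.06 CPM (SD over 5 libraries each, log2 fold change −0.37, edgeR adjusted p = 0.0108). With scaling to the hepatocyte markers Plin2 stood at −0.20 (adjusted p = 0.0739). Of the 3 genes that edit Apob mRNA 0 passed in edgeR with the filter on low counts, TMM scaling and no covariate. At an unadjusted p under 0.05, 1 (Rbm47) was higher. Apobec1, the deaminase, stood at −0.023 on the log2 scale (adjusted p = 0.902) and its cofactor Rbm47 at 0.30 (adjusted p = 0.123). Rbm47 passed with the replicate block (0.30, adjusted p = 0.0157), with no filter on low counts (adjusted p = 0.0444) and with scaling to the hepatocyte markers (0.47, adjusted p = 0.0124).

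Among 12 lipoprotein receptors and uptake genes, 2 were lower and 0 higher, with a median log2 fold change of −0.15. They were Lrp1, a remnant receptor that binds ApoE, at 424 ± 50.3 CPM in WT against 314 ± 51.0 CPM in Mir483Pat-KO (log2 fold change −0.43, edgeR adjusted p = 0.0310), and Scarb1, the HDL receptor, at 259 ± 14.6 and 213 ± 17.6 CPM (−0.29, adjusted p = 0.0308). Both calls were lost without WT replicate 3, 4 or 5 or Mir483Pat-KO replicate 2, 3 or 4, where Lrp1 stood between −0.46 and −0.37 and Scarb1 between −0.29 and −0.26. With scaling to the hepatocyte markers Lrp1 stood at −0.26 (adjusted p = 0.0827) and Scarb1 at −0.12 (adjusted p = 0.257). Of 13 plasma lipases, transfer proteins and HDL enzymes, 3 were lower and 0 higher, with a median of −0.12. Pon1, the paraoxonase carried by HDL, showed the largest fall, from 135 ± 33.3 to 67.2 ± 16.2 CPM (SD over 5 libraries each, log2 fold change −1.01, edgeR adjusted p = 0.00384). Lcat, which esterifies cholesterol on HDL, fell by 0.34 on the log2 scale (adjusted p = 0.00710), and Gpld1, a phospholipase bound to HDL, fell by 0.39 (adjusted p = 0.00769). In all 3 every Mir483Pat-KO library was below every WT library, and all 3 kept their call in each of the 10 fits that left out 1 library. With scaling to the hepatocyte markers Lcat lost its call (−0.17, adjusted p = 0.0804), while Pon1 (−0.85, adjusted p = 0.00450) and Gpld1 (−0.22, adjusted p = 0.0390) kept theirs.

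Of the 4 efflux transporters, Abcg5, which exports sterols into bile, was lower (3.68 ± 1.13 to 2.003 ± 0.483 CPM, log2 fold change −0.87, edgeR adjusted p = 0.0401) and 0 were higher. Its call held without Mir483Pat-KO replicate 1 or WT replicate 2 or 3 and was lost without any of the other 7 libraries (−0.96 to −0.68) and with the identification number range as a covariate (−0.78, adjusted p = 0.0675). Of 15 further apolipoproteins and HDL-bound proteins only 7 were tested, since Apod, Saa1, Saa2, Apol6, Apol9a, Apol9b, Apol10a and Apol10b had too few counts. In this list 2 were lower and 1 higher, with a median of −0.034. Apof, an inhibitor of cholesteryl ester transfer, fell by 0.32 on the log2 scale (adjusted p = 0.0287) and Apon fell by 0.84 (adjusted p = 0.0138). Apon kept its call whichever library was left out, and Apof was lost without WT replicate 1 or 5 or Mir483Pat-KO replicate 2, 4 or 5 (−0.32 to −0.28) and with scaling to the hepatocyte markers (−0.15, adjusted p = 0.170). Saa4, the constitutive serum amyloid A of HDL, was the 1 gene that rose, from 57.8 to 69.0 CPM in WT libraries to 68.0 to 83.1 CPM in Mir483Pat-KO libraries (log2 fold change 0.28, edgeR adjusted p = 0.0416), with 4 of 5 Mir483Pat-KO libraries above all WT libraries. The call held only without Mir483Pat-KO replicate 1 or WT replicate 3 (0.23 to 0.31 over the 10 fits), and it was lost with the identification number range as a covariate (0.25, adjusted p = 0.0597).

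Of 23 transcriptional regulators of apolipoprotein genes, 4 were lower and 0 higher, with a median log2 fold change of −0.20 and 21 fitted below 0. Foxa2, a forkhead factor of liver genes, stood at 17.7 ± 2.01 CPM in WT against 12.6 ± 1.81 CPM in Mir483Pat-KO (SD over 5 libraries each, log2 fold change −0.49, edgeR adjusted p = 0.0201). Creb3l3, a liver factor for triglyceride genes, fell by 0.31 on the log2 scale (adjusted p = 0.0272), and Srebf1, a regulator of fatty acid synthesis, fell by 0.44 (adjusted p = 0.0408). Nr0b2, a corepressor induced by bile acids, was scarce, at 1.81 ± 0.996 and 0.559 ± 0.244 CPM (a log2 change of −1.68, adjusted p = 0.0310), while 2 of its 5 Mir483Pat-KO libraries overlapped the WT range. Foxa2 passed in all 10 fits that left out 1 library, from −0.57 to −0.44, but not with the GC content and length offsets (−0.39, adjusted p = 0.0919) or scaling to the hepatocyte markers (−0.33, adjusted p = 0.0571). Creb3l3 was lost without WT replicate 5 or Mir483Pat-KO replicate 2 or 4 (−0.31 to −0.26), with the offsets (−0.21, adjusted p = 0.103) and with that scaling (−0.14, adjusted p = 0.220). Srebf1 held only without WT replicate 2 or Mir483Pat-KO replicate 1 or 5 (−0.52 to −0.50), and Nr0b2 only without WT replicate 2 or 5 or Mir483Pat-KO replicate 1. Srebf1 was also lost in the robust fit (−0.44, adjusted p = 0.0508), with the offsets (−0.31, adjusted p = 0.0806) and with hepatocyte scaling (−0.28, adjusted p = 0.0953). Nr0b2 was lost in limma-voom (−1.51, adjusted p = 0.0683) and with the identification number range as a covariate (−1.39, adjusted p = 0.0622).

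**Figure D4:**
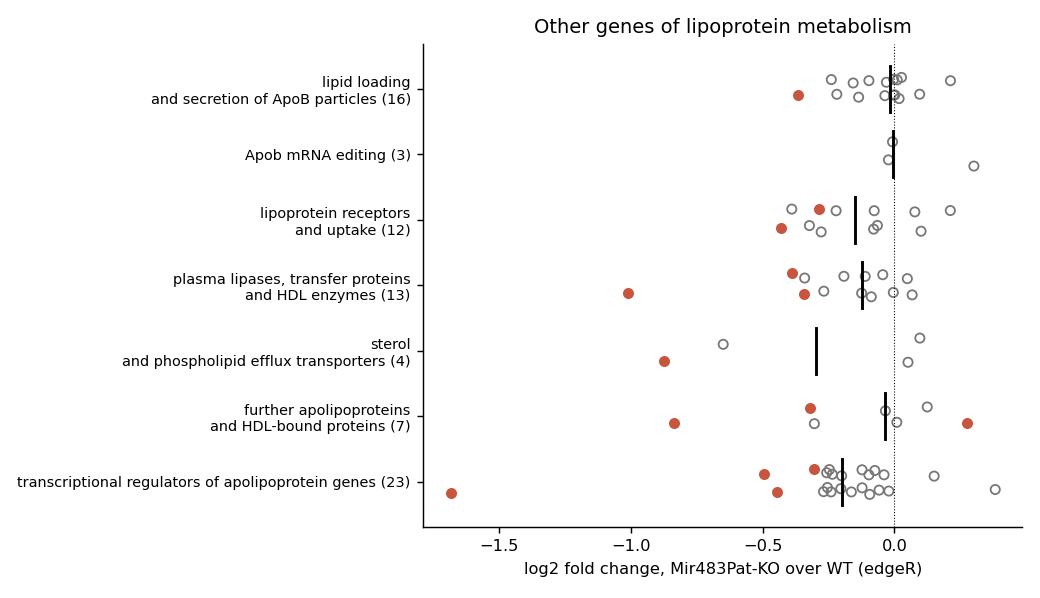
Each point is 1 tested gene of a list, with its log2 fold change of Mir483Pat-KO over WT on the horizontal axis and the list (number of genes tested in brackets) on the vertical axis. Filled red points have an adjusted p under 0.05 and black bars mark the median of the list. It lies at −0.017 for the list on loading and secretion of ApoB particles and at −0.20 for the regulators. Vertical offsets within a list carry no meaning.

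Total counts per library ranged from 10831350 to 14765880. The targeted gene had between 10 and 22 counts in each WT library and 0 in every Mir483Pat-KO library, and a count of 0 allows up to 3 counts. PolyA RNA was sequenced in these libraries, and mature microRNAs were not measured in them. In separate microRNA libraries from E18.5 livers of this model, the paper reports that both mature miR-483 forms were lacking. Library index numbers followed genotype (53 to 57 in WT, 60 to 64 in Mir483Pat-KO), and index order and genotype cannot be told apart.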

How the data were processed

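Stranded polyA libraries from E18.5 liver were sequenced as paired ends, and the authors aligned the reads to GRCm38 with STAR and deposited raw read counts per Ensembl gene, with no normalization. By the paper's methods STAR also gave the counts per gene. The strand setting and the rule for reads shared by 2 genes are not given in the sources used here. Symbols were found for 55141 of the 55401 rows. The coordinates, exon structures and 3′ UTRs are those of GENCODE release M21 (GRCm38), which is not the annotation release used for counting. Groups came from the sample titles. The members and lists were chosen with earlier results of these data known.

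Counts were fitted over all genes in edgeR 4.0.16 (R 4.3.3) with filterByExpr, TMM scaling and the quasi-likelihood F-test, with no covariate, with Benjamini-Hochberg adjustment across 14098 tested genes. CPM are counts scaled to the library size times its TMM factor. The common biological coefficient of variation was 0.111. Total counts were 10831350 to 14765880 per library, and the low counts of Apoc2 limit its precision. The 95% intervals are those of the edgeR fit and include the spread between libraries, whereas the limit given for a count of 0 covers counting error only. Ratios were log2 values of counts plus 0.5, compared by exact permutation over all 252 arrangements of the libraries. No 2 libraries of a group were alike within sampling noise (chi-square per degree of freedom of at least 4.85). The labels name separate samples without their litters, and p-values measure the spread between these libraries.

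Genes named were the 9 members, Mir483, the 4 chromosome 9 genes, and in each other list those that passed the adjusted p (at most 5) or, where none did, the 2 with the smallest p. Other genes of a list are named only as examples of its contents. Equal replicate numbers were checked for pairing. Same-numbered libraries correlated in their deviations from the group mean at 0.0871 on average (lowest −0.0496), and they were treated as unpaired. Other settings tried were the Wald test of DESeq2 1.42.0, limma-voom (limma 3.58.1), RLE factors, a robust fit, no filter or a minimum of 10 counts per library, a replicate block, a covariate for the identification number range, only the lower range, single libraries left out, GC content and length offsets, scaling to the hepatocyte markers and glmTreat against a fold change of 1.5. The procedure was tested on simulated data. Figures were drawn with matplotlib 3.10.9.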

Additional observations from a re-analysis of the deposited data

Results flagged for a closer look

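In WT replicate 3, Mttp stood at 239 CPM, the highest of its group, with the next WT library at 211 CPM. Its gap to that library was 0.944 of the range of the group, above the critical value of 0.71 for 5 libraries. This was 1 of 18 groups of member values examined, and chance flags about 1 in 20 such groups. Without WT replicate 3 the log2 fold change of Mttp was −0.26 and did not pass (edgeR adjusted p = 0.0930).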

How the results depend on the processing

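Low counts limit Apoc2, with at most 52 in a library. The count of members lower (2) was 1 with the identification number range as a covariate, 1 with GC content and length offsets, 0 in the lower range alone, 0 with glmTreat, 0 with scaling to the hepatocyte markers, where 1 was higher, and 0 to 2 without single libraries. Apoe lost its call in the lower range (log2 fold change −0.28), with glmTreat (−0.33), the offsets (−0.19) and hepatocyte scaling (−0.16), and ran from −0.37 to −0.25 without single libraries. Mttp lost its call with the range covariate (−0.23), in the lower range (−0.16), with glmTreat (−0.28) and hepatocyte scaling (−0.12), and ran from −0.36 to −0.26. Apob turned to 0.056 with the range covariate, 0.050 in the lower range and 0.11 with hepatocyte scaling, stood at −0.13 with the offsets, and ran from −0.14 to 0.00051. Under that scaling Apoc1 turned to 0.063, Apobec1 turned to 0.15 and Apom (0.27) passed, and Apoh passed in DESeq2 (−0.20). The cause of these changes was not tested, beyond fewer libraries in the lower range and a stricter null in glmTreat.

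Pathway genes lower (13) numbered 20 with no filter, 0 in the lower range, 0 with glmTreat and 5 with hepatocyte scaling, and ran from 6 to 17 without single libraries. Those higher (1) numbered 3 with no filter, 0 with the range covariate, 0 in the lower range, 0 with glmTreat and 7 with hepatocyte scaling, and ran from 0 to 1. All genes lower and higher (389 and 342) numbered 609 and 551 in DESeq2, with 633 higher and 49.7% of calls lower with no filter, 596 and 742 with the replicate block, 543 and 646 with the range covariate, 20 and 3 in the lower range and 190 and 2815 with hepatocyte scaling. Levels per length moved with the longest transcript for Apob (601), Apoe (7033), Apoa2 (7118), Apom (770.3) and Mttp (122).

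With the replicate number as a block, Apoe stood at −0.32 (edgeR adjusted p = 0.0280) and Mttp at −0.29 (adjusted p = 0.0285), the members lower stayed at 2, and the pathway genes numbered 20 lower and 3 higher. Only 2 of the 5 pairs matched best by number, so the numbers are not taken as pairs.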
